A study of Mus musculus with 109 samples.

Results

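Transcripts that are hallmarks of neutrophils and red cells were followed through every RNA library of a study of sorted mouse brain microglia. The 10 genes, chosen by name from 13902 genes listed over the 4 deposited tables, were S100a8, S100a9, Camp, Ltf, Ngp and Ifitm6, called the granule set here, and the adult haemoglobin genes Hbb-bs, Hbb-bt, Hba-a1 and Hba-a2. The study asked how microglia respond to peripheral lipopolysaccharide (LPS, a bacterial cell wall component) when they lack the interleukin 10 receptor subunit Il10ra, alone or together with Tnf. Microglia were taken from brain by flow cytometry on CD45 and CD11b and sequenced as 3' tag libraries (MARS-seq), 89 libraries, all but 1 of them in 16 groups. LPS was given as 1 intraperitoneal dose of 2.5 mg/kg.

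Untreated C57BL/6 mice gave 4 libraries. Il10ra mutants carried Cx3cr1-CreER and floxed Il10ra, and gave 9 libraries untreated, 7 at 6 h, 5 at 24 h and 5 at 48 h after LPS. Their controls were Il10ra fl/fl without Cre, with 6 libraries untreated, 6 at 6 h, 4 at 24 h, 6 at 48 h and 4 at day 7. Double mutants carried Cx3cr1-CreER with floxed Il10ra and floxed Tnf, and gave 5, 6 and 4 libraries (untreated, 6 h, 48 h). Doubly floxed controls for Il10ra and Tnf without Cre gave 6, 5 and 6 libraries. The Cx3cr1 promoter is active in microglia and also in some other mononuclear phagocytes, and all groups except C57BL/6 carried floxed alleles. A library at 48 h had labels that name different genotypes and was kept out of every comparison.

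Neutrophils store antimicrobial proteins in granules that are filled in the bone marrow, and the transcripts of the granule proteins are abundant in immature neutrophils and decline as the cells mature, while S100a8 and S100a9 transcripts persist in mature cells. Red cell precursors and reticulocytes carry haemoglobin transcripts at very high levels, so few such cells can give many reads. Neither programme is a known hallmark of resting microglia.

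The libraries held 540642 to 2489084 reads. They were placed in 7 experiments by the opening words of their labels, not all of which name an experiment. The 10 microglia markers were listed in every table, and their summed level was 40036 to 41908 normalised reads in untreated Il10ra-floxed controls. Il10ra, the targeted gene, ran from 19.0 to 123.6 normalised reads in untreated Il10ra mutants, against 457 to 745 in untreated controls, and from 9.75 to 37.2 in untreated double mutants, against 409.6 to 533 in doubly floxed controls. Nothing in the labels says whether replicate libraries came from separate animals, so p-values measure the spread between these libraries. The day 7 control group and the C57BL/6 group each formed an experiment of their own, so group and experiment cannot be told apart there.

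Some of these genes lie close together in pairs. S100a8 (chr3:90669071-90670034) and S100a9 (chr3:90692630-90695721) are neighbours, Hbb-bs and Hbb-bt form the adult beta-globin pair on chromosome 7, and Hba-a1 and Hba-a2 the alpha-globin pair on chromosome 11. The 120 bases before the start of 7 genes are shown, because the levels of the haemoglobin genes went together, and because Camp, Ltf and Ngp parted from S100a8 and S100a9 at 48 h. They are RefSeq sequences of GRCm38.p6 in the direction of the gene. Capitals mark the CCAAT box, the CACCC box, the TATA box searched as TATAA, and the pattern TTNNGNAA, each on either strand, so the reverse-strand forms stand in capitals too, and matches may overlap.
Hbb-bs, chr7:103827929-103828048, minus strand: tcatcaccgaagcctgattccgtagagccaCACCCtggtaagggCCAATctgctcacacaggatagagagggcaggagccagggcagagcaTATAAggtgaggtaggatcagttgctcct
Hbb-bt, chr7:103813924-103814043, minus strand: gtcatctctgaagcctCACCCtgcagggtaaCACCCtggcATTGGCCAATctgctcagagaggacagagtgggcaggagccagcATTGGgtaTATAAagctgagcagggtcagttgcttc
Hba-a1, chr11:32283552-32283671, plus strand: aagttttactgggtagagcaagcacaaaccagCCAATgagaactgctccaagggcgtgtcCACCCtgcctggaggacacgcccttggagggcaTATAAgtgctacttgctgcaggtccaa
Hba-a2, chr11:32296372-32296491, plus strand: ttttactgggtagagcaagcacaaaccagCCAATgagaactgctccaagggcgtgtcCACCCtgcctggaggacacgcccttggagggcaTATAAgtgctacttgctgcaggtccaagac
Camp, chr9:109849457-109849576, minus strand: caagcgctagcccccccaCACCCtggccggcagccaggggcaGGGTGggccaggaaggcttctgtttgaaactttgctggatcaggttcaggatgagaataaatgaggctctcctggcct
Ltf, chr9:111019172-111019291, plus strand: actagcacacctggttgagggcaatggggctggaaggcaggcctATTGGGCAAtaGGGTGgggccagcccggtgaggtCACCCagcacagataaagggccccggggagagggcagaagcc
Ngp, chr9:110419688-110419807, plus strand: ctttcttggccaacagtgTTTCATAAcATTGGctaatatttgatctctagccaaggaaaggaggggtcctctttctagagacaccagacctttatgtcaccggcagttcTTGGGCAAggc
All 4 haemoglobin windows held the CACCC, the CCAAT and the TATAA letters. Over 32851 promoter windows of the same length these letters stood in 31.7, 21.3 and 11.8% of windows, and TTNNGNAA in 5897 of them. The window of Hba-a1 was 95.1% identical to that of Hba-a2, and that of Hbb-bs 74.6% identical to that of Hbb-bt. Because the genes of each globin pair are closely related copies, the counting may have split reads between them, and the level of a single copy is uncertain.

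Across the 89 libraries the 2 families were low in most libraries and high in a few. The 6 granule genes took from 0.000103 to 1.60% of the reads of a library, with a median of 0.0184%. The 4 haemoglobin genes took from 0 to 0.456%, with a median of 0.00197%. In bulk samples a small number of cells of another type and a low level of RNA in every cell cannot be told apart, and the source of these reads was not tested. Granule reads reached 0.1% in 9 libraries and haemoglobin reads in 7. No library was without granule reads and 3 had 3 or fewer, whereas 7 libraries had 0 haemoglobin reads and 22 had 3 or fewer.

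Libraries that stand apart recur in the results below. Day 7 replicate 1 had the highest granule share, 1.60% of reads, and the other day 7 libraries had 0.357, 0.545 and 0.224%. At 6 h, doubly floxed control replicate 3 had 0.653% and Il10ra mutant replicate 1 had 0.299%. For haemoglobin, replicate 2 of the double mutants at 6 h was highest with 0.456%, and the 4 day 7 libraries had 0.254, 0.161, 0.138 and 0.304%. Replicate 3 of the untreated doubly floxed controls had 0.254% and replicate 5 of the Il10ra-floxed controls at 6 h had 0.140%. That untreated doubly floxed library had a granule share of only 0.000142%. For day 7 replicate 1 the 95% Wilson interval of the granule share was 1.58 to 1.62%, and for replicate 4 it was 0.213 to 0.235%. Such intervals cover counting error only.

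**Figure D1:**
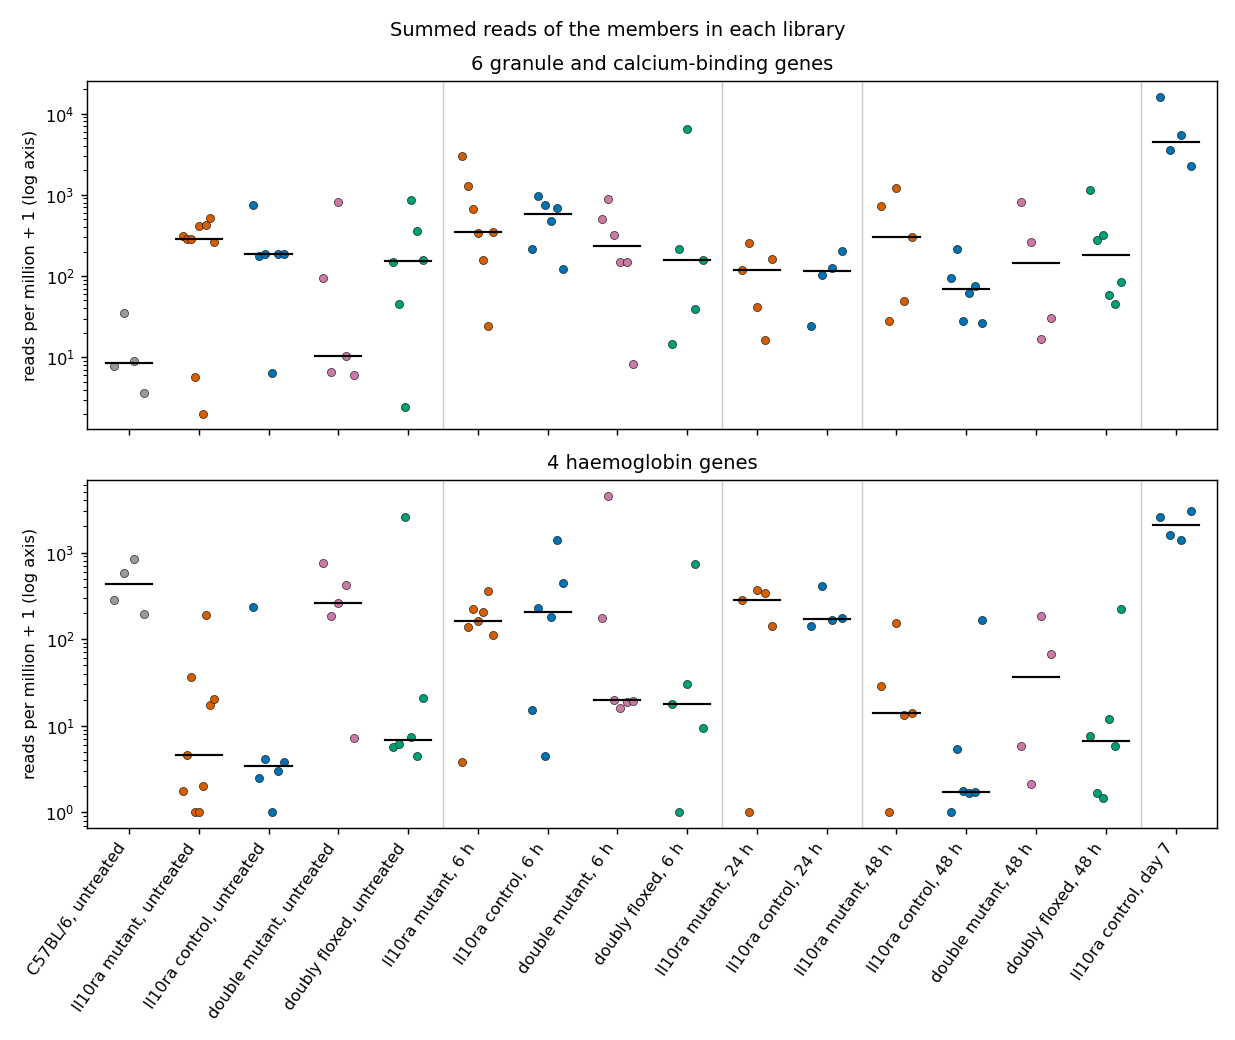
Summed RPM (reads scaled to a common library total, plus 1, log axis) of the 6 granule genes (top) and the 4 haemoglobin genes (bottom), 1 point per library, with groups in order of time and a bar at each group's median. The 4 day 7 libraries stand above every other Il10ra-floxed control library in the top panel, and above all but replicate 5 of 6 h in the bottom one. The library without a group is not drawn.

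Granule and haemoglobin reads were high together in some libraries and apart in others. At a share of 0.05% of reads or more, 6 libraries were high for both families, 16 for the granule set only, 5 for haemoglobin only and 62 for neither, and 4 of the 6 libraries high for both were those of day 7. Within single experiments, the calcium-binding partners S100a8 and S100a9, which form calprotectin, varied together from library to library. Their log2 levels correlated in all 5 experiments with at least 6 libraries (13 to 21 libraries each), with Pearson's r from 0.842 to 0.983 and Spearman's rho from 0.732 to 0.984. S100a8 and Ngp, a granule protein of the cathelicidin family, correlated in 5 of 5 experiments as well (r 0.606 to 0.960, rho 0.550 to 0.945). S100a8 and Ifitm6, an interferon-induced transmembrane protein, passed in 4 of 5 (r 0.537 to 0.899, rho 0.530 to 0.908), the exception being the post-LPS double mutant experiment with an adjusted permutation p of 0.0605.

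Beta and alpha globin kept step. Hbb-bs and Hba-a1 correlated in 5 of 5 experiments with r from 0.943 to 0.979 (rho 0.737 to 0.967), and r was 0.870 to 0.974 without the 2 libraries farthest from the median of Hbb-bs. S100a8 and Hbb-bs, 1 gene of each family, passed in 0 of 5, with r from -0.301 to 0.408 and rho from -0.357 to 0.373. Of the 25 relations computed, 19 had a permutation p (100000 resamples, two-sided, adjusted by Benjamini-Hochberg over the 25) under 0.05. The smallest p that the resamples can give was 1e-05. These libraries mix groups, and with each library taken as its deviation from its group mean S100a8 and Ngp passed in 4 of 5 experiments, S100a8 and Ifitm6 in 5, and the other pairs in the same numbers.

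**Figure D2:**
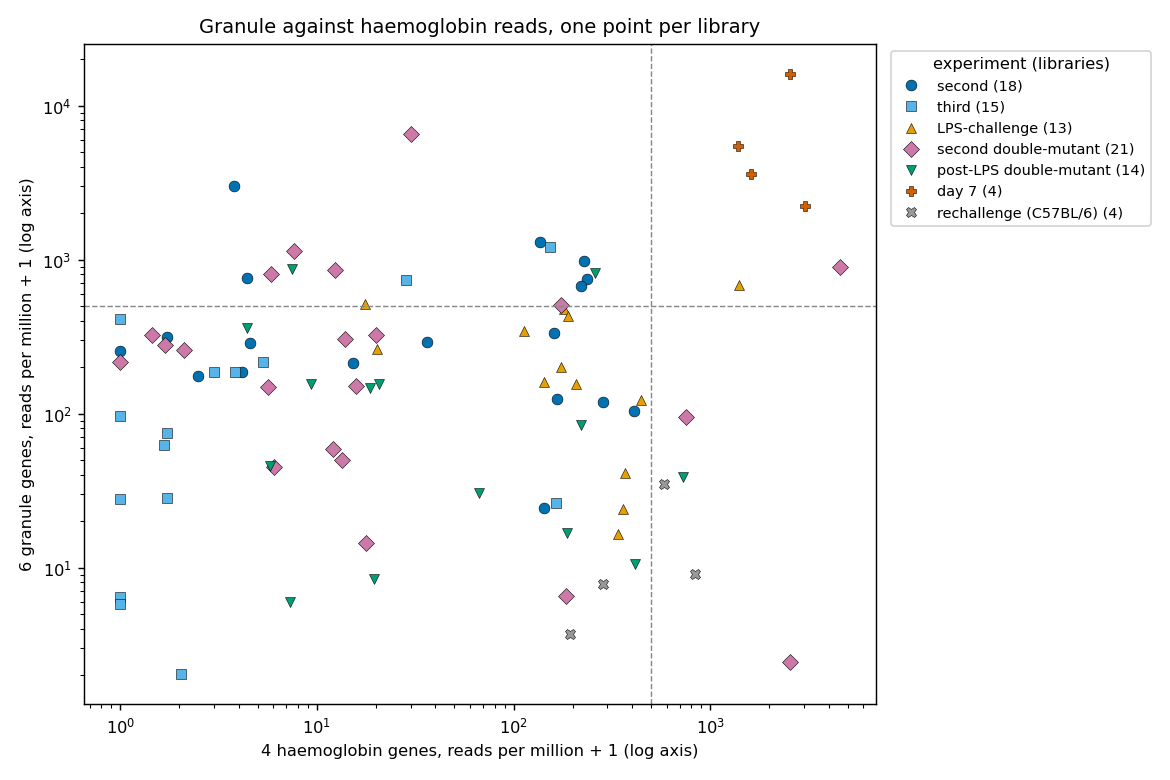
RPM (plus 1, both axes log) of the 4 haemoglobin genes (x) and the 6 granule genes (y), 1 point per library, coloured and shaped by experiment, with dashed lines at 0.05% of reads. The 4 day 7 libraries fill most of the upper right field, the C57BL/6 libraries lie low for the granule set and on both sides of the dashed line for haemoglobin (0.0193 to 0.0833% of reads), and the remaining experiments spread along both axes.

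Hbb-bs held the largest mean share of the haemoglobin reads. Over the 42 libraries with at least 50 haemoglobin reads, Hbb-bs held 50.1 ± 5.59% of them (SD), Hbb-bt 12.5 ± 4.78%, Hba-a1 21.6 ± 5.68% and Hba-a2 15.8 ± 4.03%. The shares ranged from 37.7 to 61.8% for Hbb-bs, from 0 to 22.9% for Hbb-bt, from 9.66 to 33.8% for Hba-a1 and from 8.21 to 28.5% for Hba-a2. The beta chain genes together held 62.6 ± 8.61%, with a range of 39.5 to 82.1%. The ratio of S100a9 to S100a8 reads had a median of 1.495 over the 72 libraries with at least 10 reads of S100a8, with a range of 0.438 to 6.76.

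The comparison with the most genes called was that of Il10ra-floxed controls 7 days after LPS, where all 10 were higher than in untreated controls. S100a8, the first calprotectin subunit, had 4013, 913, 1494 and 633 normalised reads at day 7, against 67.3, 45.0, 72.2, 0.858, 48.5 and 59.5 in the 6 untreated controls. S100a9, its partner, had 9136, 1695, 2498 and 1149 at day 7, against 4.29 to 259 (median 81.5) in untreated controls. Camp, the cathelicidin precursor, had 2249, 554, 792 and 289.6 at day 7, against 0 to 149 (median 20.1). Every day 7 library lay above every untreated library for these genes, and replicate 1 of day 7 was highest each time. The share of all genes that separate in this way is not given here, so it is a description of these values.

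Ltf, which encodes the iron-binding lactoferrin, had 1241, 266, 451 and 131.8 normalised reads at day 7, against 0 to 63.8 (median 11.3) in untreated controls. Ngp had 2468, 661, 986 and 374 at day 7, against 0.858 to 273 (median 36.0). Ifitm6 had 371, 45.9, 50.8 and 38.3 at day 7, against 0 to 2.62 (median 0.391), with 3 of the 6 untreated libraries at 0. The groups did not overlap for these genes, which is again a description only.

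Haemoglobin followed another order among the day 7 libraries. Hbb-bs had 1392, 937, 873 and 1797 normalised reads at day 7, against 0 to 158.1 (median 1.1998) in untreated controls. Hba-a1 had 753, 385, 294 and 728 at day 7, against 0 to 26.2 (median 0.417). Replicate 4, the lowest for the granule set, was the highest for Hbb-bs, and untreated replicate 1 held nearly all haemoglobin reads of its group. Hbb-bt ranged from 217 to 486 at day 7, against 0 to 47.2 in untreated controls, and Hba-a2 from 204 to 587, against 0 to 24.5.

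In limma, with p adjusted by Benjamini-Hochberg over 11103 genes, all 10 genes passed at day 7, beside 3.03% of all genes tested called in either direction and 2.46% called higher. The log2 differences on the log2(value + 1) scale were 5.37 ± 0.88 (SE) for S100a8 (adjusted p = 0.000212), 5.36 ± 0.83 for S100a9 and 5.37 ± 0.84 for Camp. Ltf was higher by 5.27 ± 0.72, Ngp by 4.84 ± 0.86 (adjusted p = 0.000569) and Ifitm6 by 5.52 ± 0.61 (adjusted p = 6.09e-07). The haemoglobin differences were larger, 8.35 ± 1.27 for Hbb-bs, 7.28 ± 1.21 for Hbb-bt, 7.83 ± 1.14 for Hba-a1 and 7.27 ± 1.12 for Hba-a2. The median of the 10 genes was 5.45, against 0.0014 over all genes. DESeq2 called 9 of the 10, with Hbb-bt at an adjusted p of 0.0813.

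Genes of other cell types were also higher at day 7, and their part in the result was not tested. A gene was tested if it reached 5 in 4 libraries, so genes high at day 7 alone could enter these lists. The counts of genes called are partly set by this filter. Of 19 tested neutrophil genes outside the 10, 16 were higher and 0 lower, with summed levels of 2255 to 8866 normalised reads at day 7, against 1042 to 1461 in untreated controls. Anxa1, an annexin, was higher by 5.22 ± 0.59 (adjusted p = 6.23e-07) and Hp, haptoglobin, by 4.46 ± 0.48. Of 12 red cell genes 2 were higher, namely Alas2, the first enzyme of haem synthesis in red cells, by 4.06 ± 0.60 and Car2, a carbonic anhydrase, by 2.60 ± 0.58. Monocyte genes were higher in 9 of 13, among them Ly6c2 (4.86 ± 0.62), border macrophage genes in 8 of 9, and platelet genes in 1 of 4 (Pf4, 3.81 ± 0.47). The platelet count rests on Pf4 alone. The lists share genes, with Chil3 in the neutrophil and monocyte lists and F13a1 in the monocyte and border macrophage lists. These counts are therefore not separate. B cell genes were higher in 0 of 4 and microglia genes in 0 of 10, and the microglia sum was 38836 to 43294 at day 7, against 40036 to 41908 in untreated controls.

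**Figure D3:**
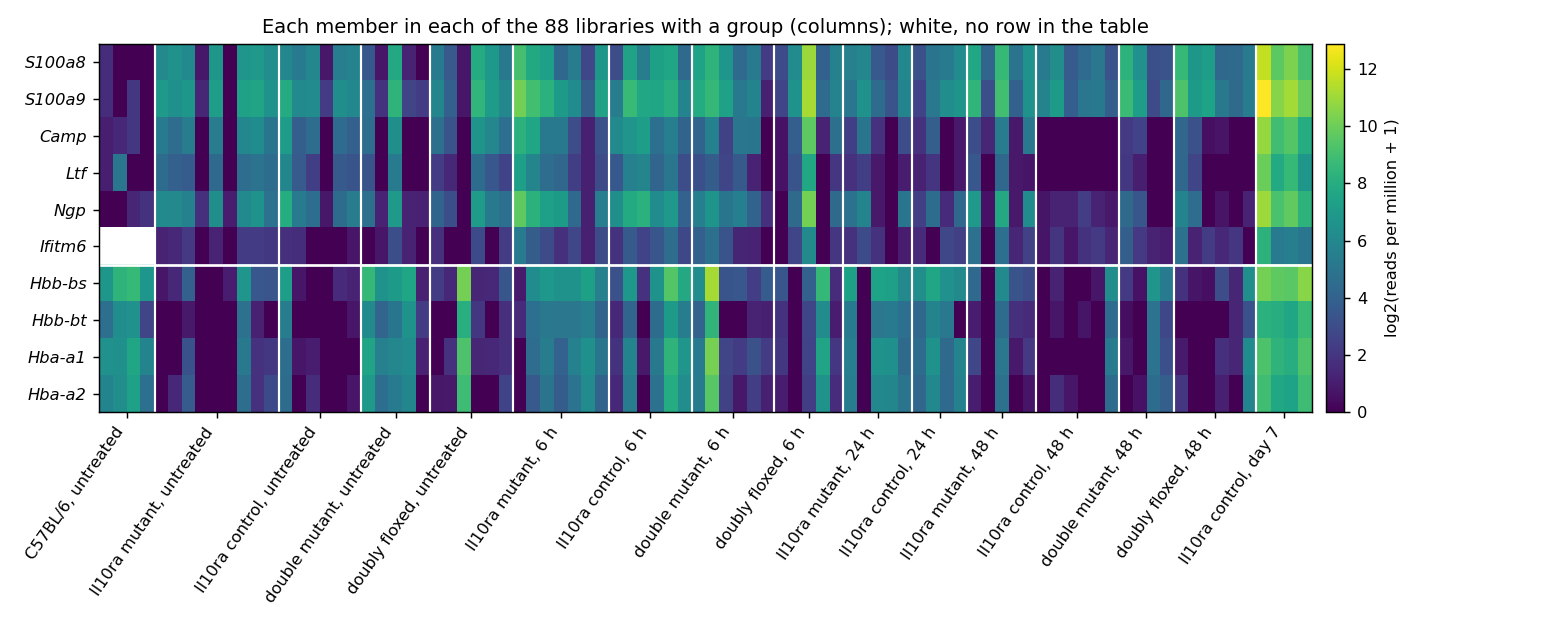
Log2(RPM + 1) of each of the 10 genes (rows) in each library with a group (columns, groups separated by white lines). The day 7 columns are high in all rows, the Camp and Ltf rows are at 0 in all 6 Il10ra-floxed controls at 48 h, and white cells mark Ifitm6 in C57BL/6, which had no row in the untreated table.

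Untreated C57BL/6 microglia differed from untreated Il10ra-floxed controls in opposite directions for the 2 families, with all 4 haemoglobin genes higher and 3 granule genes lower. Hbb-bs had 118, 351, 416 and 112.03 normalised reads in C57BL/6, against 134.1, 0.718, 0, 0, 1.90 and 1.34 in the floxed controls, scaled in the same table. Hba-a1 had 94.3, 93.7, 200.4 and 57.4 in C57BL/6, against 0 to 22.2 in the floxed controls, and Hba-a2 had 56.6, 86.2, 173 and 26.6, against 0 to 20.7. Replicate 1 of the floxed controls reached into the C57BL/6 range for Hbb-bs. The groups did not overlap for Hba-a1 and Hba-a2, a description given without the share over all genes.

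S100a9 was at 2.36, 0, 3.45 and 0 normalised reads in C57BL/6, against 220.0, 65.3, 74.96, 3.68, 79.6 and 58.9 in the floxed controls. S100a8 was at 2.36, 0, 0 and 0 in C57BL/6, against 57.03, 38.8, 62.1, 0.736, 41.7 and 50.9 in the floxed controls, where replicate 4 lay within the C57BL/6 range. Ngp was at 0, 0, 1.73 and 2.80, against 0.736 to 232. The 4 C57BL/6 libraries together held 2 reads of S100a8 and 4 of S100a9. Ltf was an exception in C57BL/6 replicate 2, with 33.7 normalised reads where the others had 1.18, 0 and 0.

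Of 9 genes tested, 4 were called higher and 3 lower in C57BL/6 (limma, Benjamini-Hochberg over 10367 genes), beside 9.74% of all genes called, 5.8% higher and 3.95% lower. Hbb-bs was higher by 5.95 ± 1.13 (adjusted p = 0.000841), Hba-a1 by 5.60 ± 0.89, Hba-a2 by 4.99 ± 0.88 and Hbb-bt by 4.10 ± 0.97 (adjusted p = 0.0067). S100a9 was lower at -4.78 ± 1.16 (adjusted p = 0.00779), S100a8 at -4.41 ± 1.14 and Ngp at -3.90 ± 1.014. Camp (-2.76, adjusted p = 0.119) and Ltf (-1.55, adjusted p = 0.404) did not pass. DESeq2 instead called 4 genes, all lower (Camp, Ngp, S100a8 and S100a9), and none of the haemoglobin genes. Without C57BL/6 replicate 2 Ngp no longer passed (adjusted p = 0.0518), and without floxed control replicate 4 Camp also passed (-3.56, adjusted p = 0.0278). Beside this, 2 of 8 tested genes of the neutrophil list outside the 10 were higher and 3 lower. Of 9 tested genes of the red cell list 1 was higher, Ube2l6 by 1.09 ± 0.27, a gene that is not exclusive to red cells.

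At 6 h after LPS the family levels of the Il10ra-floxed controls were spread widely, and only Ifitm6 passed. It had 3.36, 15.005, 6.08, 11.3, 28.5 and 6.99 normalised reads at 6 h, against 2.62, 2.50, 0, 0, 0 and 0.783 untreated. Replicate 1 at 6 h and untreated replicates 1 and 2 held 3 reads each, so they differ only by scaling. The difference was 1.72 ± 0.67 (limma, adjusted p = 0.0414), and 1 of 10 called stands beside 39.9% of all genes, 19.8% higher. Without replicate 2 or 3 at 6 h or untreated replicate 3 the count was 0, and without untreated replicate 1 it was 3, with Camp at 2.38 and Hbb-bs at 4.56 (adjusted p = 0.0485 and 0.0177). DESeq2, edgeR and the libraries of 1 experiment gave 0, and the fit without an experiment term gave 7. Camp had 84.0, 135, 175, 28.9, 52.7 and 19.6 at 6 h, against 149, 15.8, 27.4, 0, 24.3 and 15.7 untreated, which overlap (1.45, not called). Neutrophil genes outside the 10 were higher in 6 of 19 and lower in 2.

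At 24 h and 48 h Camp and Ltf were called lower than in untreated controls, while S100a8 and S100a9 were not called. The groups overlapped at both times, and these calls depended on single untreated libraries. The number of genes called was near or under the share of all genes called in either direction. At 24 h Camp had 2.86, 16.9, 0 and 1.02 normalised reads, and Ltf had 1.43, 3.63, 0 and 1.02, against the untreated 0 to 149 and 0 to 63.8. Camp was lower by log2 at -3.18 ± 0.89 (limma, adjusted p = 0.00901) and Ltf at -2.84 ± 0.82 (adjusted p = 0.011), with overlapping groups. The 2 genes called, both lower, stand beside 27.5% of all genes called and 14% lower. Ngp was at -2.55 (adjusted p = 0.0553) and S100a8 at -1.12, and Ngp passed within 1 experiment (-3.11, adjusted p = 0.0304), in DESeq2 (-2.73, adjusted p = 0.0466), in edgeR (-2.79, adjusted p = 0.0124), on RPM (adjusted p = 0.0462) and with a pseudocount of 5 (adjusted p = 0.0456).

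The haemoglobin genes pointed the other way at 24 h without passing. Hbb-bs had 92.2, 237, 105.5 and 80.6 normalised reads at 24 h, against 158.1, 0.834, 0, 0, 2.21 and 1.57 in untreated controls, a difference of 3.56 (limma, adjusted p = 0.0959). Without untreated replicate 1, the library that held most haemoglobin, Hbb-bs was at 5.85 (adjusted p = 0.0059), Hba-a1 and Hba-a2 passed too, and Camp and Ltf did not (adjusted p = 0.0863 and 0.11). Without replicate 4 at 24 h 5 genes passed, Hbb-bs and Hbb-bt higher and Camp, Ltf and Ngp lower. Ngp also passed without replicate 2 at 24 h or without untreated replicate 3, 4 or 6. The fit without an experiment term called 5 genes, 3 haemoglobin genes higher and Camp and Ltf lower.

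At 48 h Camp and Ltf had no read in any of the 6 Il10ra-floxed controls, against 265 and 123 reads in the 6 untreated controls. Untreated replicate 4 also had 0 reads of both genes, so the groups overlapped. Ngp had 0.875, 1.65, 1.71, 4.85, 1.80 and 0.998 normalised reads at 48 h, against 0.858 to 273 untreated. S100a8 had 51.6, 93.5, 13.7, 25.9, 41.4 and 10.98 at 48 h, against 67.3, 45.0, 72.2, 0.858, 48.5 and 59.5 untreated, and the S100a9 ranges overlapped likewise. Counted over pooled reads, with 3 reads standing for a count of 0 over the group, Camp was at least 94.5-fold lower at 48 h and Ltf at least 43.8-fold lower. Untreated replicate 1 held 171 of the Camp reads and 73 of the Ltf reads, and without it the bounds were 39.9 and 21.2. Within the third experiment, the only one that holds both groups, the bounds were 34.9 and 19.7. Its untreated reads came from replicates 5 and 6 alone, with 33 and 20 of Camp and 17 and 13 of Ltf.

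Both genes passed at 48 h (limma, Benjamini-Hochberg), with adjusted p = 0.0128 for Camp and 0.0239 for Ltf, beside 17.4% of all genes called and 6.94% lower. Ngp was at -2.27 ± 0.89 (adjusted p = 0.0809) and was called lower by DESeq2 (-3.62, adjusted p = 0.00549), by edgeR (-3.54, adjusted p = 0.0181) and without an experiment term (-3.48, adjusted p = 0.00179). S100a8 was at 0.83 (adjusted p = 0.585) and S100a9 at 0.37 (adjusted p = 0.819). Haemoglobin was low in both groups except in 1 library of each, Hbb-bs reaching 95.8 in replicate 6 at 48 h, against 158.1 in untreated replicate 1. Neither gene passed without untreated replicate 5 or 6, with Camp at -2.03 and -2.33 (adjusted p = 0.153 and 0.11), and Ngp passed in addition without untreated replicate 4. Within 1 experiment 4 genes passed, Camp, Ltf and Ngp lower and Ifitm6 higher by 1.39. The median over all 10 genes was 0.64, also with Camp and Ltf at their bounds. Of the neutrophil list outside the 10, 5 of 19 genes were higher and 0 lower, beside 1164 of all 11103 genes called higher. First among them was Lcn2, which encodes lipocalin 2, at 599.9 ± 322 normalised reads at 48 h and 26.9 ± 20.1 untreated (SD, n = 6 each). Lcn2 was higher by 5.31 ± 0.62. It is not exclusive to neutrophils, and the source of its reads was not tested.

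Camp, Ltf and Ngp made up a varied part of the granule reads, with the lowest group medians in both control groups at 48 h. Camp, Ltf and Ngp together held 30.9 to 36.2% of the reads of these 3 genes plus S100a8 and S100a9 in the 4 day 7 libraries. In untreated Il10ra mutants with at least 50 such reads the share was 31.4 to 41.0% (7 libraries), against 27.7 to 59.8% in untreated Il10ra-floxed controls (5 libraries). In Il10ra-floxed controls the share was 25.2 to 76.6% at 6 h (6 libraries) and 1.61 to 38.1% at 24 h (3 libraries). At 48 h it was 20.4, 8.0, 23.4, 5.26 and 36.0% in the 5 Il10ra mutants, against 0.680 to 6.98% in 4 Il10ra-floxed controls. All but replicate 4 of these mutants lay above the highest of these Il10ra-floxed controls. Double mutants at 48 h had 3.503 and 6.35% in 2 libraries, against 0.143 to 13.4% in 5 doubly floxed controls. These shares are a description, with no test.

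**Figure D4:**
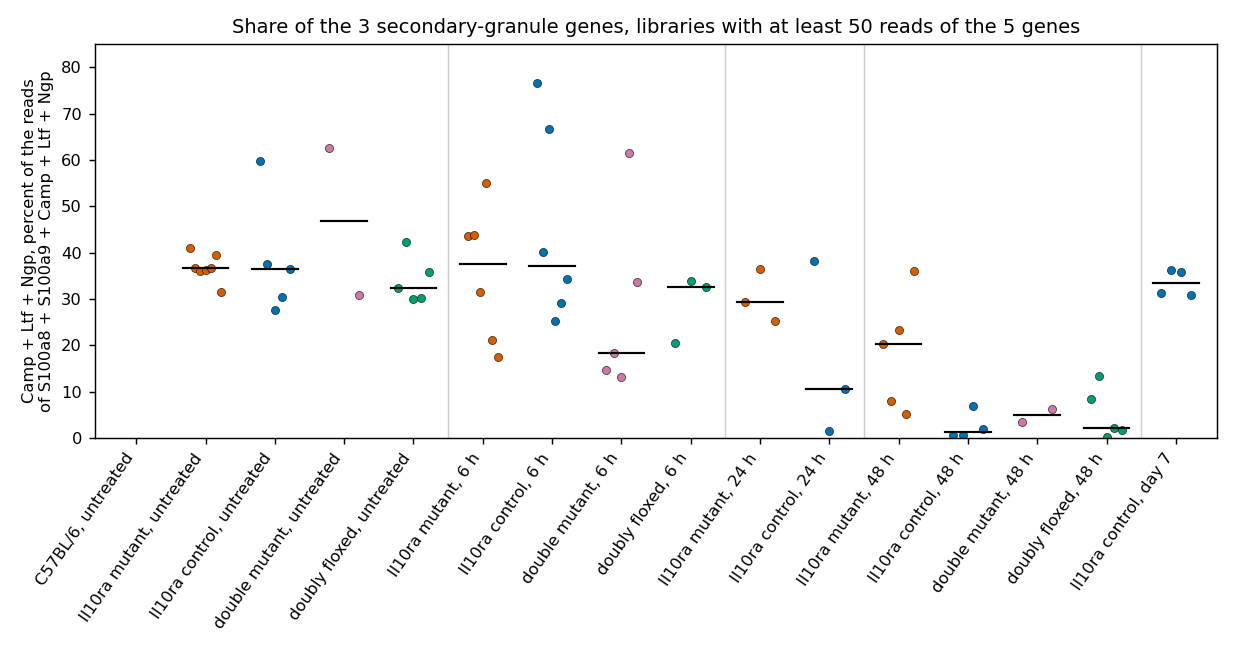
Reads of Camp, Ltf and Ngp as a percentage of the reads of these genes plus S100a8 and S100a9, 1 point per library with at least 50 such reads, with a bar at each group's median. No C57BL/6 library reached 50 reads. Both control groups lie low at 48 h, and the 4 day 7 libraries lie between 30.9 and 36.2%.

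At 48 h Camp, Ltf and Ngp were called higher in Il10ra mutants than in Il10ra-floxed controls. This number of genes was close to the share called among all genes, and only some of the mutant libraries were high. Camp had 8.15, 1.60, 47.3, 0.887 and 38.7 normalised reads in the 5 mutants, against 0 in all 6 controls. Ltf had 11.2, 0, 20.9, 0.887 and 0.758 in the mutants, against 0 in all 6 controls. Ngp had 134.45, 0.534, 233, 0.887 and 81.1 in the mutants, against 0.809, 1.53, 1.58, 4.51, 1.66 and 0.917 in the controls. Mutant replicates 1 and 3 were high for all 3 genes, replicates 2 and 4 were at the level of the controls for Ngp, and replicate 5 was high for Camp and Ngp.

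Camp passed at 3.39 ± 1.09 (limma, adjusted p = 0.0158), Ltf at 2.69 ± 0.90 (adjusted p = 0.02) and Ngp at 3.80 ± 1.29 (adjusted p = 0.0227). These 3 of 10, all higher, stand beside 27.9% of all genes called in either direction, a share close to that of the 10, and 12.7% called higher. Over pooled reads Camp was at least 48.3-fold higher in mutants and Ltf at least 15.4-fold higher, and within the third experiment at least 45.1-fold and 23.8-fold. Mutant replicate 3 held 59 of the Camp reads where the others together held 63, and 26 of the Ltf reads where the others held 13, and without it the bounds over all libraries were 30.96-fold and 6.39-fold. The fitted differences rest on the 3 mutant libraries of that experiment, since mutant replicates 4 and 5 came from an experiment without controls in the table. Without mutant replicate 3 no gene passed (Camp 2.29, adjusted p = 0.192), without replicate 1 only Camp did, and without replicate 2 Ifitm6 (3.30) and S100a9 (3.55) passed in addition. With a pseudocount of 5 Camp (1.73, adjusted p = 0.0833) and Ltf (1.36, adjusted p = 0.0765) no longer passed while Ngp and Ifitm6 did, and without an experiment term Ltf did not pass (adjusted p = 0.0843). DESeq2 and edgeR each called all 6 granule genes.

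S100a8 had 228, 17.1, 434, 31.9 and 106.1 normalised reads in mutants at 48 h, against 47.7, 86.2, 12.6, 24.1, 38.3 and 10.1 in controls, and did not pass (2.06, adjusted p = 0.189). S100a9 was at 1.63 (adjusted p = 0.312), Ifitm6 at 1.67 (adjusted p = 0.0965) and Hbb-bs at 2.13 (adjusted p = 0.271). All 10 estimates were positive, with a median of 1.91, against 0.012 over all genes, and the granule median was 2.37, or 2.93 with Camp and Ltf at their bounds. Microglia genes were lower in 9 of 10 in these mutants, with a sum of 9337 to 15789 normalised reads, against 22839 to 28322 in controls. Neutrophil genes outside the 10 were higher in 5 of 19 and lower in 3, and of 12 monocyte genes 1 was higher, Ly6c2 at 2.13 ± 0.77. The part of these in the result was not tested.

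Whether the response to LPS differed by genotype was tested as an interaction. At 48 h Camp was at 3.20 (adjusted p = 0.106), Ltf at 2.50 (adjusted p = 0.126) and Ngp at 3.52 (adjusted p = 0.136), so 0 of 10 passed, beside 16.4% of all genes. At an unadjusted p under 0.05 there were 3, and DESeq2 called 3 and edgeR 2. The interaction at 24 h (0.0433% of all genes called), that at 6 h (0% called) and those of the double mutants at 6 h (0.00847% called) and 48 h (0% called) gave 0 of 10 in limma, DESeq2 and edgeR alike, and 0 at an unadjusted p under 0.05.

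**Figure D5:**
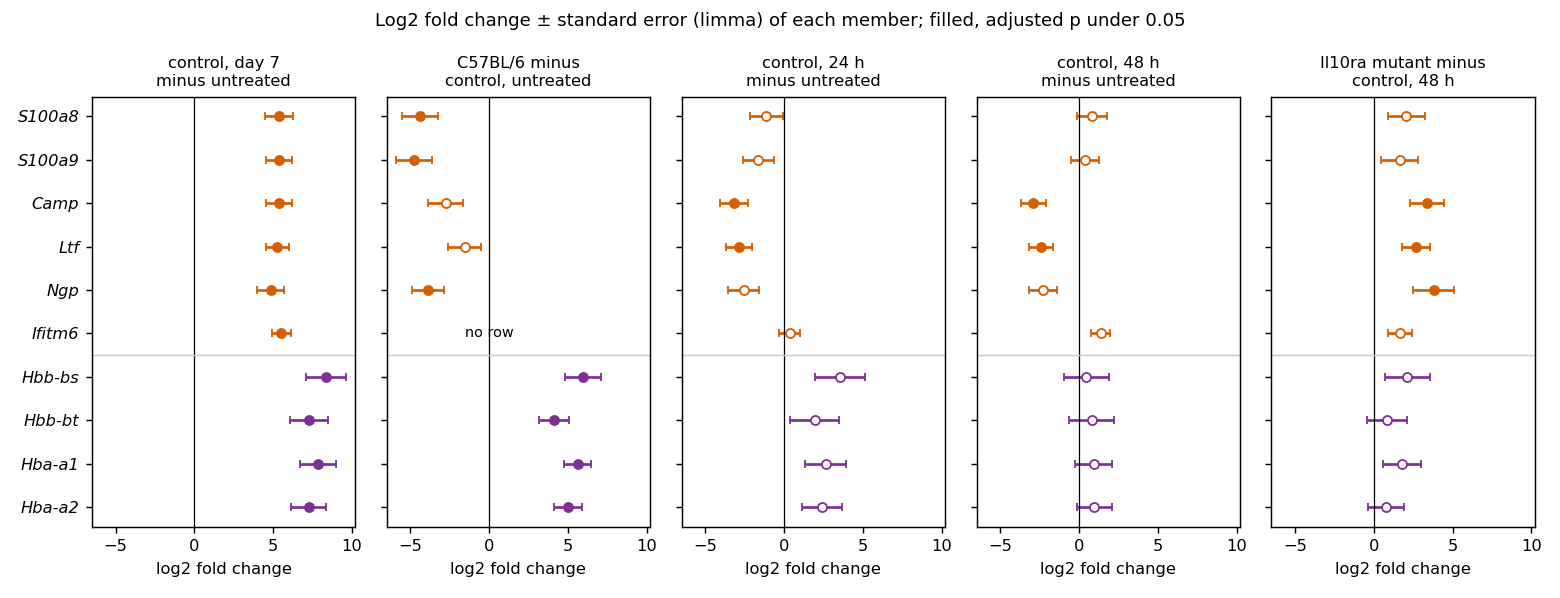
Log2 fold change ± SE from limma for each gene (rows) in 5 comparisons (panels), filled where the adjusted p was under 0.05. All 10 genes are filled and positive at day 7, while at 24 and 48 h in controls only Camp and Ltf are filled, below 0.

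In the other comparisons of Il10ra mutants with controls no gene passed. Untreated mutants had 0 to 129.6 normalised reads of S100a8 (median 85.8), against 0.790 to 66.6 in untreated controls of the same table, and 0 of 10 passed, beside 0.00865% of all genes. Replicates 4 and 6 of the untreated mutants, with 0.807 and 0 normalised reads of S100a8, and replicate 4 of the untreated controls, with 0.790, were the low libraries. At 6 h and 24 h 0 of 10 passed, beside 3.31 and 3.5% of all genes. At 24 h Hbb-bs had 172, 0, 196, 173 and 73.3 in mutants, against 84.8, 217, 96.8 and 73.8 in controls. Here limma, edgeR and DESeq2 each called 0, with 0 at an unadjusted p under 0.05 in limma.

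In the double mutant table no gene passed in limma, and 1 library often set the mean of its group. In doubly floxed controls at 6 h Camp had 0.551, 14.3, 871, 1.502 and 29.1 normalised reads, against 0 to 106.6 (median 27.6) untreated, and 0 of 10 passed beside 42.7% of all genes. None had an unadjusted p under 0.05, and edgeR called 2 (Ifitm6 and Ltf) while DESeq2 called 0. At 48 h Camp had 20.8, 9.41, 0.522, 0.714, 0 and 0, against 28.7, 9.94, 0, 106.6, 67.8 and 26.5 untreated. Camp was at -2.92 (adjusted p = 0.0989), the 1 gene of 10 with an unadjusted p under 0.05, beside 23.6% of all genes called. Without untreated replicate 3, the haemoglobin-rich library, it passed at -3.97 (adjusted p = 0.0212). DESeq2 called 3 genes lower (Camp, Hbb-bs and Hbb-bt) and edgeR 1 (Hbb-bt). S100a8 at 48 h ran from 22.1 to 449 and at 1.14 stood on the other side of 0 from Camp.

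Between double mutants and doubly floxed controls no gene passed in limma at any time. Untreated, Hbb-bs had 415, 95.8, 136, 198 and 1.46 normalised reads in double mutants, against 4.22, 1.81, 1237, 1.69, 1.88 and 10.6 in doubly floxed controls. All double mutant libraries but replicate 5 lay above all controls but replicate 3, and 0 of 10 passed, beside 0.0254% of all genes, with 1 (Hbb-bt) at an unadjusted p under 0.05. The deposited column of untreated double mutant replicate 4 carries the word mistake although its labels name this group, and without this library 0 of 10 passed here and in both double mutant interactions. At 6 h replicate 2 had 2602 of Hbb-bs where the other double mutants had 4.63 to 93.9, against 0 to 418 in doubly floxed controls. There 0 of 10 passed at 6 h, beside 0.0678% of all genes, and 0 at 48 h, beside 0.0169%, with 0 at an unadjusted p under 0.05. DESeq2 and edgeR also called 0 in these comparisons.

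Genes whose level followed the families from library to library were ranked over all libraries of each table, as a description. In the table of controls (26 libraries) the granule sum was followed most closely by Chil3, a chitinase-like protein (Pearson's r = 0.955), Anxa1 (0.948), Cd177, a neutrophil surface protein (0.903), Pglyrp1, a peptidoglycan recognition protein of granules (0.882), and Wfdc21 (0.869). Chil3, Anxa1 and Pglyrp1 were also among the first 5 without the day 7 libraries, at 0.895, 0.889 and 0.717, and in the tables of the mutants (48 libraries) and double mutants (38 libraries). In the untreated table (19 libraries) Lcn2 came first at 0.946, then Hp at 0.860 and Chil3 at 0.834.

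The haemoglobin sum had no such constant company. Alas2 came first in the table of controls (r = 0.822), and without day 7 the first was Faim (0.780). Mif was first in the mutant table (0.688), P3h4 in the double mutant table (0.597) and Commd4 in the untreated table (0.897). The points of each table share experiments and groups, so these values describe the libraries at hand.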

How the data were processed

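The deposited values are normalised reads, a signal per gene that the authors scaled within each of 4 tables (controls, mutants, double mutants, untreated), aligned to mm10 per the submitters' processing notes. The sources used here do not give the scaling method. Every column was a whole multiple of its smallest step (100% of values within a tolerance of 0.01), so reads were recovered and used for shares of reads, edgeR and DESeq2. Levels across tables use shares, since the tables were scaled separately. The controls and mutant tables share 22 libraries with the same reads. Rows with date-like names (17 or 18 a table) and blank names (1 in 2 tables) were left out. Reads per library were 540642 to 2489084. The 20 ATAC-seq libraries (mm9) were not used.

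Groups came from the labels. The main test was limma 3.58.1 (trend) in R 4.3.3 on log2(value + 1), over genes that reached 5 in 4 or more libraries, with an additive experiment term except at day 7 and for C57BL/6, and Benjamini-Hochberg adjustment over all genes tested. A gene was called at an adjusted p under 0.05. The 4 libraries of the filter can be those of a single group, so a gene high in that group alone can enter the test. Fold changes on this scale understate those of low genes. Alternatives were a pseudocount of 5, no filter, edgeR 4.0.16, DESeq2 1.42.0, RPM and a replicate block. Others were a changed experiment term, libraries of 1 experiment, and leaving out each library. The term was left out where the main fit had it. At day 7 it was added, with the day 7 libraries counted in the second experiment. The fits were tested on simulated data, with changes planted only in genes of higher mean level and with no experiment effect. That test does not cover genes near 0 reads or single outlying libraries. Replicate numbers paired libraries only for doubly floxed controls at 6 h against untreated (correlations of deviations 0.131 to 0.226, 5 pairs of 1 experiment), and there the block called 0 genes, as without it.

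The genes named were the 10 members, up to 2 genes of lowest p from each marker list beside a comparison with members called, and the 5 genes most correlated with each family sum. The 10 members and the lists were chosen with earlier results of these data known.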

Additional observations from a re-analysis of the deposited data

Results flagged for a closer look

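Single libraries stood far from the rest in 62 of 135 combinations of a gene and a group of 4 to 10 libraries. The combinations were screened by Dixon's test, whose chance rate of about 1 in 20 holds for normally distributed values. Levels of these genes were low in most libraries and high in a few, so the 62 cannot be judged against that rate. Genes of a family are not independent here, and no explanation was tested. Values are normalised reads, and each was the highest of its group.

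For the granule set, doubly floxed control replicate 3 at 6 h had 2030.0 of S100a8, 2429 of S100a9, 871 of Camp, 214 of Ltf, 1195 of Ngp and 74.2 of Ifitm6. Replicate 1 of the Il10ra mutants at 6 h had 661 of S100a8, 1384 of S100a9, 187 of Ltf, 1007 of Ngp and 46.7 of Ifitm6. Replicate 3 of the untreated double mutants had 232 of S100a8, 355 of S100a9, 89.7 of Camp, 39.0 of Ltf and 133 of Ngp. Replicate 1 of the untreated Il10ra-floxed controls had 259 of S100a9, 149 of Camp, 63.8 of Ltf and 273 of Ngp, and also 158.1 of Hbb-bs and 47.2 of Hbb-bt. Doubly floxed control replicate 2 at 48 h had 449 of S100a8, 711 of S100a9 and 31.0 of Ifitm6.

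Day 7 replicate 1 had 9136 of S100a9 and 371 of Ifitm6. Camp was at 35.2 in replicate 2 of the Il10ra mutants at 24 h, and at 16.9 in replicate 2 of the Il10ra-floxed controls at 24 h, which also had 237 of Hbb-bs. Ngp was at 139 in replicate 4 of the untreated doubly floxed controls, and Ltf at 33.7 in replicate 2 of C57BL/6.

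For haemoglobin, replicate 2 of the double mutants at 6 h had 2602 of Hbb-bs, 391 of Hbb-bt, 1376 of Hba-a1 and 832 of Hba-a2. Replicate 3 of the untreated doubly floxed controls had 1237 of Hbb-bs, 290.0 of Hbb-bt, 649.8 of Hba-a1 and 483 of Hba-a2. Replicate 5 of the Il10ra-floxed controls at 6 h had 835 of Hbb-bs, 157 of Hbb-bt, 396 of Hba-a1 and 304 of Hba-a2. Doubly floxed control replicate 4 at 6 h had 418 of Hbb-bs, 81.1 of Hbb-bt, 201 of Hba-a1 and 108.2 of Hba-a2.

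Lower levels stood out in other groups. Replicate 3 of the Il10ra mutants at 48 h had 75.4 of Hbb-bs, 24.9 of Hbb-bt, 36.9 of Hba-a1 and 28.9 of Hba-a2. Replicate 7 of the untreated Il10ra mutants had 110.02 of Hbb-bs, 37.98 of Hba-a1 and 26.2 of Hba-a2, and replicate 6 of the Il10ra mutants at 6 h had 87.5 of Hba-a2. Replicate 6 of the Il10ra-floxed controls at 48 h had 95.8 of Hbb-bs, 49.9 of Hba-a1 and 27.9 of Hba-a2. Doubly floxed control replicate 7 at 48 h had 97.8 of Hbb-bs, 87.7 of Hba-a1 and 64.1 of Hba-a2.

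The library whose labels name different genotypes, used in no comparison, had a granule sum of 1012, within the 52.7 to 1297 of the doubly floxed controls at 48 h and above the 1.48 to 902 of the untreated ones.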

How the results depend on the processing

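At day 7 all 10 genes were called under each library left out, and the alternatives other than DESeq2 (9) also called 10. The experiment term used there counted the day 7 libraries in the second experiment, so it cannot separate day 7 from its own experiment. With libraries left out in turn the number called was 6 to 8 for C57BL/6, 0 to 3 at 6 h, 2 to 5 at 24 h and 0 to 3 at 48 h in Il10ra-floxed controls, 0 to 5 for Il10ra mutants against controls at 48 h, and 0 to 1 for doubly floxed controls at 48 h. DESeq2 called 4 for C57BL/6, 0 at 6 h in controls, 6 for mutants at 48 h, 3 for doubly floxed controls at 48 h and 3 for the 48 h interaction. For edgeR the counts were 0 at 6 h in controls, 6 for mutants at 48 h, 1 and 2 for doubly floxed controls at 48 h and 6 h, and 2 for the interaction. Without an experiment term 7 were called at 6 h and 5 at 24 h in controls, and within 1 experiment 0 at 6 h and 4 at 48 h. A pseudocount of 5 left 1 at 48 h in controls, and for mutants at 48 h it called 2, Ngp and Ifitm6, without Camp and Ltf. DESeq2 and edgeR each called 3 at 24 h and at 48 h in controls, Camp, Ltf and Ngp. The double mutant interactions without untreated double mutant replicate 4, chosen after seeing the data, called 0. With the replicate block 0 were called at 6 h and 1 at 48 h in controls, Camp also passed for C57BL/6 (adjusted p = 0.0134) and Hbb-bs at 24 h (adjusted p = 0.0367). Those numbers did not pair the libraries, whose correlations of deviations ran from -0.313 to 0.488. The causes were not tested. Of 2635 values for single genes under an alternative, 2554 kept their side of the threshold and direction, 29 lost the call, 52 gained it and 0 reversed. Most of the 2635 were for genes not called in the main fit, which kept their side by staying uncalled. Genes near 0 reads limit the precision.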

Other observations

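The 48 h library whose labels name different genotypes had 1650 granule reads of 1930004, or 0.0855% (95% Wilson interval 0.0815 to 0.0897%), and 22 haemoglobin reads, or 0.00114%. Camp, Ltf and Ngp held 14.2% of its reads of these genes plus S100a8 and S100a9 (95% Wilson interval 12.57 to 15.99%).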
